A study of Mus musculus with 20 samples.

Results

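*Hamp*, which encodes the iron hormone hepcidin, was examined in mouse liver together with its near copy *Hamp2* and 8 genes of the BMP-SMAD pathway that controls it. The members were the rows of the deposited count table whose Ensembl identifier carries one of 10 gene symbols. All 10 were found among the 54532 genes of the table, and all 10 were among the 12289 genes that passed a limit of 2 CPM in 3 or more mice and were tested.

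Liver RNA of 20 male C57BL/6 mice was sequenced, with 1 library per mouse and 5 mice in each of 4 groups. Every mouse, the sham groups included, had first spent 12 weeks on a high-fat diet (HFD) and become obese. The mice then had a sham operation or Roux-en-Y gastric bypass (RYGB), in which a small stomach pouch is joined to the jejunum so that food passes by the duodenum. After surgery they ate chow (groups Sham Chow and RYGB Chow) or stayed on HFD (groups Sham HFD and RYGB HFD) for 8 weeks. No group ate chow throughout, ages are not given in the sources used here, and the Sham HFD mice weighed more than the other groups. In any contrast with Sham HFD, body weight and the named factor cannot be told apart.

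Hepcidin is released by hepatocytes and makes cells destroy ferroportin, the iron exporter, so that less iron enters the blood. *Bmp6*, made mostly by liver sinusoidal endothelial cells, encodes a ligand that rises with liver iron and acts on hepatocytes through BMP receptors and the co-receptor hemojuvelin. SMAD proteins phosphorylated by these receptors bind DNA with SMAD4 and raise the transcription of *Hamp* and of *Id1*, *Smad6*, *Smad7* and *Atoh8*. *Tfr2* and *Hfe* encode sensors of transferrin-bound iron that raise the signal, *Tmprss6* encodes a membrane protease that lowers it by cleaving hemojuvelin, and IL-6 raises *Hamp* along a separate arm through STAT3.

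*Hamp* (ENSMUSG00000050440) lies on the minus strand of chromosome 7 of GRCm38, from 30942368 to 30944032, and *Hamp2* (ENSMUSG00000056978) on the same strand from 30922372 to 30924681, with 17686 bases between the genes. The sequences just before their RefSeq transcription starts are shown because they show how alike the copies are, and 1 place where a searched motif differs. They are the 250 bases before each start, 5′ to 3′ on the minus strand, at chr7:30944030-30944279 for *Hamp* and chr7:30924182-30924431 for *Hamp2* (RefSeq, GRCm38.p6). Capitals mark matches to 3 searched motifs, in order CAGAC (the SMAD4 box, here on the other strand), GGCGCC (the core of a BMP response element) and TTCNNNGAA (a STAT site), none of which overlap here.
Hamp: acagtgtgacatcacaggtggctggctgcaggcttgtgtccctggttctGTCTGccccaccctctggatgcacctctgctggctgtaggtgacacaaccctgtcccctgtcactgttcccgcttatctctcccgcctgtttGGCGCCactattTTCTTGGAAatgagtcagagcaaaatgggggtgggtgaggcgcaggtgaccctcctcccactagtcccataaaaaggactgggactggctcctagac
Hamp2: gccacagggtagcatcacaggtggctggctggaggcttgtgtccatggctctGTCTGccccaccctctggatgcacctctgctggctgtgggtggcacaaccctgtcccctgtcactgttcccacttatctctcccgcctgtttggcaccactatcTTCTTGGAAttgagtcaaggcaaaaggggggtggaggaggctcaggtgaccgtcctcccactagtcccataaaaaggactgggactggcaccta
Over these 250 bases, 227 of 247 aligned bases were identical (91.9%), and 20 substitutions separated the genes. One of them, G145A, fell inside GGCGCC, where positions are counted from 1 at the first base of the *Hamp* sequence and the *Hamp* base is given first. The STAT motif was spelled TTCTTGGAA in both. Of 32851 RefSeq promoter windows that run on for another 50 bases past the start, searched on both strands, 11.9% held GGCGCC, 8.3% the STAT motif, 49.6% CAGAC and 7.15% CACGTG, an E-box. Windows were found for 7 of the 10 members, all but *Id1*, *Smad7* and *Tmprss6*. GGCGCC occurred in *Hamp* alone among them, CACGTG in *Bmp6* and *Atoh8*, CAGAC also in *Bmp6*, *Tfr2* and *Hfe*, and *Smad6* held none of the 4 motifs. A match is a run of letters and does not show that a factor binds there.

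The *Hamp* and *Hamp2* transcripts share 388 of 410 aligned bases (94.6%), with a longest identical run of 87 bases. The handling of reads that fit both genes and the strand setting of the counting are not given in the sources used here, so the split of reads between the copies is uncertain. *Hamp2* also shares 89 exonic bases with *Gm44662*, a non-coding RNA gene of the opposite strand, and *Bmp6* shares 224 with *Txndc5*. No other member overlaps an exon of another gene.

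Total counts ran from 14604854 to 22537498 per mouse. Levels are given as CPM, read counts scaled to library size with TMM factors, and fold changes are of the second group over the first on the log2 scale. A gene is called when its adjusted p, from edgeR's quasi-likelihood test with Benjamini-Hochberg adjustment over all tested genes, is under 0.05. A second comparison of each member, an exact two-sided permutation test, used the mice themselves, and in it 5 mice against 5 cannot go below 0.00794. Of the 6 hepatocyte markers 0 were at 0 in all mice, and their summed level, 66868 to 118498 CPM per mouse, marked the samples as liver. In such bulk RNA, fewer cells of a type and less RNA per cell cannot be told apart. RYGB Chow replicate 3 went its own way in several members and is given separately. Over all tested genes it stood apart from its group in 285 genes (2.32%), compared with 367 for RYGB Chow replicate 5, 367 for Sham HFD replicate 1 and 52 to 231 for the other mice.

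After RYGB on HFD, 8 of the 10 members were called (7 by limma-voom, and 6 to 9 with 1 mouse left out). *Hamp*, *Hamp2*, *Bmp6*, *Id1*, *Smad6*, *Hfe* and *Atoh8* fell and *Tfr2* rose, where 16.4% of all tested genes were called and 7.9% were called lower. The same 8 had an unadjusted p under 0.05, as did 30.7% of all genes. The HFD groups did not overlap for 8 members, all but *Smad6* and *Tmprss6* (14.7% of all genes). On chow, 0 of 10 members were called after RYGB (0.057% of all genes) by edgeR. DESeq2 called 2 (92 of all 12289 genes) and limma-voom 1 (3 of 12289). At an unadjusted p under 0.05 there were 5, all lower (*Hamp*, *Hamp2*, *Bmp6*, *Id1* and *Smad7*), against 10.8% of all genes in either direction and 5.09% lower. The chow groups did not overlap for 2 members, *Hamp* and *Hamp2* (1.33% of all genes). Without RYGB Chow replicate 3, 4 members were called lower on chow (*Hamp*, *Id1*, *Smad7* and *Atoh8*), where 0.0734% of all genes were called. The groups then did not overlap for 5 members (1.86%). That mouse was singled out because these same 4 genes were high in it. Calls made without it are therefore no independent evidence, and the shares of all genes are no like baseline for them. The median log2 fold change of the 10 members was -0.58 on chow and -0.82 on HFD, compared with 0.00 and 0.01 over all tested genes.

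HFD itself, in sham mice, left 3 members called, *Hamp2* and *Hfe* higher and *Tfr2* lower, where 21.6% of all genes were called. The unadjusted test passed 5 (35.7% of all genes) and 3 did not overlap, *Hamp*, *Smad7* and *Tfr2* (16.5%). In RYGB mice, HFD left *Hamp* and *Hamp2* called, both lower, 2 of 10 against 3.65% of all genes, with 7 at an unadjusted p under 0.05 (18.8%) and 2 not overlapping (5.05%). The difference between the diet effects in RYGB and in sham mice, the surgery by diet interaction, was called for 4 members, *Hamp*, *Hamp2*, *Tfr2* and *Hfe* (5.06% of all genes), the same 4 that had an unadjusted p under 0.05 (20.8%). Without RYGB Chow replicate 3 the counts of called members were 9 after RYGB on HFD (17.6% of all genes), 6 for HFD in sham mice (23.4%), 2 for HFD in RYGB mice (2.87%) and 3 for the interaction (4.37%). The study had named *Hamp*, *Hamp2*, *Bmp6* and *Id1* from these same mice, so the counts are no independent evidence of a direction. The contrasts share groups, so their values are not independent of each other.

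*Hamp* was the most abundant member per base of transcript in sham mice. Its CPM was 721, 736, 1102, 625 and 964 in the 5 Sham Chow mice (replicates 1 to 5) and 403, 437, 298, 231 and 265 in Sham HFD. RYGB Chow mice measured 3.05, 4.90, 447, 1.075 and 10.8. In RYGB HFD they measured 0.163, 0.521, 0.115, 0.0591 and 0.0665, which are 3, 10, 2, 1 and 1 reads. Every RYGB mouse lay below every sham mouse on the same diet. RYGB Chow replicate 3, with 8140 *Hamp* reads, was above all 5 Sham HFD mice, while the other 4 RYGB Chow mice had 22 to 190 reads.

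On chow the mean was 829.6 ± 197 CPM (SD, n = 5) in sham mice and 93.4 ± 198 in RYGB mice. The log2 fold change was -3.15 (SE 1.02, adjusted p = 0.268, edgeR), and without RYGB Chow replicate 3 it was -7.40 (SE 0.47, adjusted p = 1.47e-08). limma-voom, which weights the log values, called it with all 20 mice (-6.47, adjusted p = 0.00104). On HFD the fall, from 326.8 ± 88.9 to 0.185 ± 0.192 CPM, was -10.66 on the log2 scale (SE 1.65, adjusted p = 0.000166). The 17 reads of the 5 RYGB HFD mice together put the level at 0.196 CPM, 1670.2-fold below Sham HFD, with a 95% exact Poisson interval from 1043 to 2867 that covers counting error only.

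The test of whether diet moved *Hamp* by different amounts in sham and RYGB mice depended on the method. Sham HFD mice all lay below Sham Chow mice (exact permutation test, two-sided p = 0.00794), and the log2 fold change of -1.34 was not called by edgeR with all 20 mice (adjusted p = 0.323). It was called without RYGB Chow replicate 3 (0.00519) and with the sham groups fitted alone (0.000451). In RYGB mice the fall on HFD was -8.86 (SE 1.62, adjusted p = 0.00372), and -4.61 (SE 0.65, adjusted p = 0.000335) without that mouse, a value that remained called. limma-voom did not call it (-5.73, adjusted p = 0.38), nor did edgeR on these 10 mice alone (adjusted p = 0.058). The interaction was -7.51 (SE 1.93, adjusted p = 0.0283), -3.27 (adjusted p = 0.02) without RYGB Chow replicate 3 and -7.30 (adjusted p = 0.0549) without RYGB HFD replicate 4. It was not called by limma-voom (-4.37, adjusted p = 0.5) or with the replicate number as a block (-6.05, adjusted p = 0.075). Both sham means, chow first, were above both RYGB means, of which RYGB HFD was the lower. Sham HFD and RYGB Chow overlapped through RYGB Chow replicate 3.

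*Hamp2*, which encodes a hepcidin-like peptide with little known effect on iron, was higher, not lower, in sham mice on HFD. Sham Chow mice measured 5.99, 8.75, 7.26, 19.99 and 13.5 CPM and Sham HFD mice 12.3, 21.3, 34.5, 37.1 and 54.3. In RYGB Chow the values were 4.58, 1.51, 0.494, 0.587 and 4.08 CPM. All 5 RYGB HFD mice had 0 reads, which allows up to 3 reads per library, a mean of 0.174 CPM. RYGB mice lay below sham mice on both diets with no overlap, and 4 of 5 Sham HFD mice lay above all Sham Chow mice.

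Against that floor of 3 reads per library, *Hamp2* in RYGB HFD was at least 184-fold lower than the Sham HFD mean and at least 12.9-fold lower than the RYGB Chow mean. edgeR called both (adjusted p = 6.34e-06 and 0.00927), and limma-voom did not call the second (adjusted p = 0.0742). On chow the surgery difference was -2.30 (SE 0.54, adjusted p = 0.148), with 2.25 ± 1.95 CPM in RYGB Chow and 11.1 ± 5.72 in Sham Chow. HFD raised *Hamp2* in sham mice by 1.54 (SE 0.48, adjusted p = 0.0304). Leaving out Sham Chow replicate 1, 2 or 3 or Sham HFD replicate 3, 4 or 5 moved this adjusted p to between 0.0555 and 0.0928, and DESeq2 did not call it (1.53, adjusted p = 0.0553). The interaction was called (adjusted p = 0.00295), with a fitted value of -9.93 that is no bound because RYGB HFD is at 0.

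**Figure D1:**
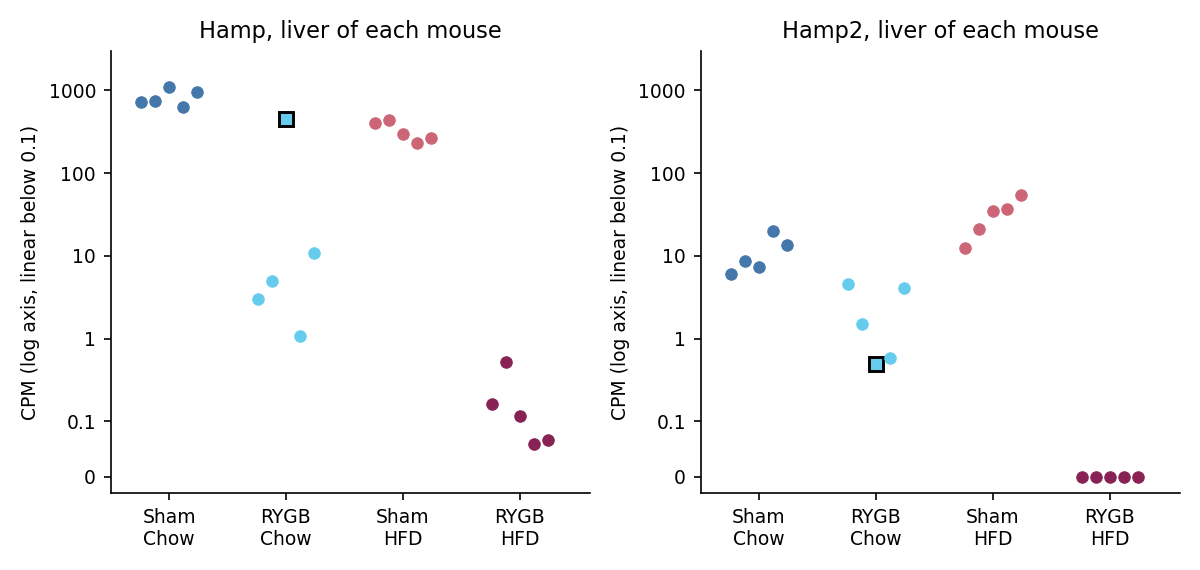
CPM of *Hamp* and *Hamp2* in the liver of each mouse, 1 point per mouse and 5 per group, on a log axis that is linear below 0.1. The black-edged square is RYGB Chow replicate 3, at 447 CPM for *Hamp* and 0.494 for *Hamp2*, and all 5 RYGB HFD mice lie at 0 for *Hamp2*.

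The balance of the copies also differed between mice. *Hamp2* held 0.655% to 3.10% of the reads of both genes in Sham Chow and 2.98% to 17.0% in Sham HFD. In 4 RYGB Chow mice it held 23.5% to 60.0%. RYGB Chow replicate 3, high in *Hamp*, was the lowest of its group for *Hamp2*, with 9 reads beside 8140 (0.11%). That is the smallest share in the mice with any *Hamp2* reads, so at most this share of *Hamp* reads can have been counted as *Hamp2* in that library.

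*Bmp6* (ENSMUSG00000039004, chromosome 13, 38345107 to 38500302, plus strand), the ligand, was low in CPM and lower after RYGB on HFD. It measured 4.52, 4.81, 4.18, 7.91 and 6.71 CPM in Sham HFD and 3.97, 2.55, 1.499, 3.43 and 2.79 in RYGB HFD. The groups did not overlap, and the log2 fold change was -0.98 (SE 0.33, adjusted p = 0.0495). The call is marginal. limma-voom did not make it (adjusted p = 0.0823). It was lost in 17 of 20 fits that each left out 1 mouse, with adjusted p-values up to 0.121 without Sham HFD replicate 4, and kept only without RYGB Chow replicate 3 or 5 or RYGB HFD replicate 1.

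On chow *Bmp6* measured 9.85, 6.11, 8.05, 8.14 and 5.52 CPM in Sham Chow and 5.501, 3.55, 5.71, 5.57 and 1.02 in RYGB Chow. The groups overlapped, with 3 of 5 RYGB mice below all sham mice, and -0.82 (SE 0.32, adjusted p = 0.353) was not called. The diet differences were -0.42 (SE 0.32, adjusted p = 0.35) in sham and -0.59 (SE 0.34, adjusted p = 0.371) in RYGB mice.

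*Bmp6* comes mostly from sinusoidal endothelial cells, so its level was also set against 10 markers of these cells, a comparison chosen after seeing the data. Of the markers, 0 of 10 were called in any of the 4 contrasts by edgeR. At an unadjusted p under 0.05, 2 of 10 passed after RYGB on HFD, both lower (30.7% of all genes passed). For HFD in sham mice 1 passed (35.7% of all genes). The summed level of the markers spanned 249.7 to 408 CPM among Sham Chow mice and 154 to 458 among RYGB Chow. It spanned 320.5 to 505 CPM among Sham HFD and 165 to 478 among RYGB HFD mice. The lowest *Bmp6* in RYGB Chow, replicate 5, and in RYGB HFD, replicate 3, came with the lowest marker sums of those groups.

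As a percent of the marker sum, the *Bmp6* level on chow was 2.34% ± 0.25 (SD, n = 5) in sham and 1.11% ± 0.259 in RYGB mice. The ranges, 2.05% to 2.72% and 0.663% to 1.31%, did not overlap (exact permutation test, two-sided p = 0.00794, adjusted p = 0.0159 over 4 comparisons). Sham HFD, at 1.38% ± 0.259, was also below Sham Chow without overlap (exact permutation p = 0.00794, adjusted p = 0.0159). This ratio also carries the marker sum, which averaged 321 ± 60.8 CPM in Sham Chow and 405.6 ± 74.6 in Sham HFD (exact permutation p = 0.0873). In plain CPM, *Bmp6* was not called between these groups (adjusted p = 0.35, edgeR). RYGB HFD, at 0.896% ± 0.218, was below Sham HFD with overlap (exact permutation p = 0.0159, adjusted p = 0.0212). RYGB HFD and RYGB Chow overlapped (exact permutation p = 0.262). On this scale, as already in plain CPM, the group means of *Bmp6* had the order of the *Hamp* means. RYGB Chow replicate 3 was the highest of its group at 1.31% but below every Sham Chow mouse.

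**Figure D2:**
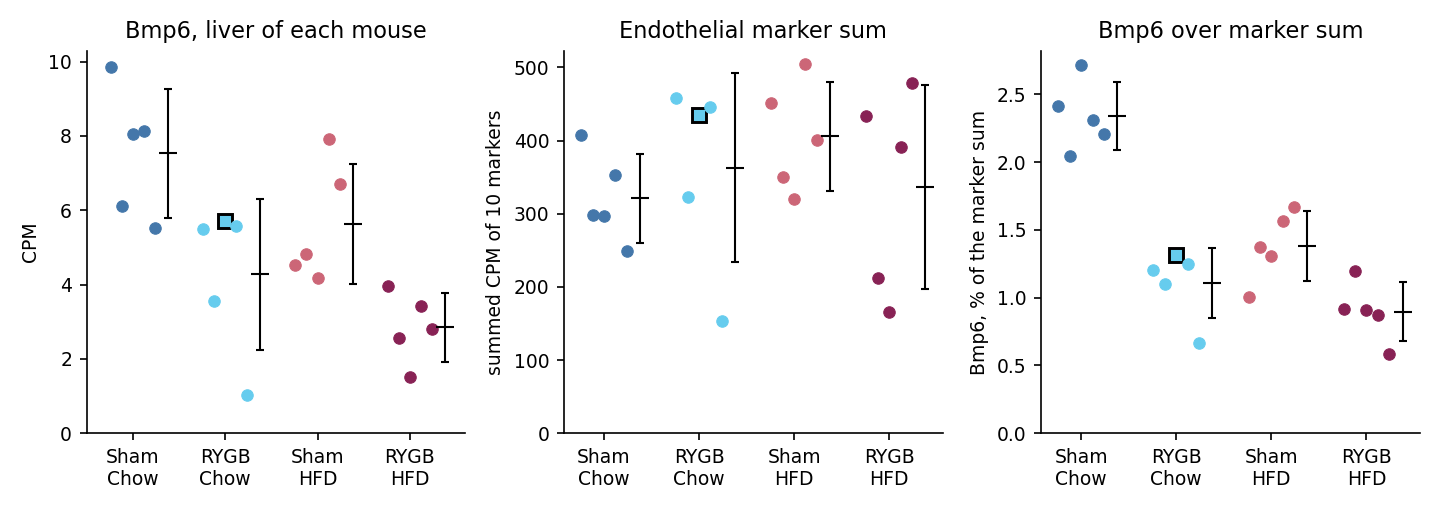
*Bmp6* in CPM, the summed CPM of 10 endothelial markers, and *Bmp6* as a percent of that sum, 1 point per mouse with the mean and SD of 5 mice beside it and RYGB Chow replicate 3 as a square. The percent separates Sham Chow, at 2.05% to 2.72%, from the mice of the other groups, at 0.584% to 1.67%.

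*Tfr2* (ENSMUSG00000029716, chromosome 5, 137569840 to 137587481, plus strand) and *Hfe* (ENSMUSG00000006611, chromosome 13, 23702034 to 23710854, minus strand), the iron sensors, moved in opposite directions. *Tfr2* measured 345, 369, 370.2, 374 and 347 CPM in Sham HFD and 467, 505, 531, 473 and 500.3 in RYGB HFD. All RYGB HFD mice lay above all Sham HFD mice, a rise of 0.46 (SE 0.07, adjusted p = 0.000112). Sham HFD was below Sham Chow (414 to 479.5 CPM) without overlap, by -0.30 (SE 0.07, adjusted p = 0.00399). These 2 calls held with each mouse left out in turn. On chow, RYGB mice (394 to 496 CPM) and sham mice overlapped, with a log2 fold change of 0.01 (SE 0.07, adjusted p = 0.973), and the lowest RYGB Chow mouse was replicate 3. The interaction was 0.45 (SE 0.10, adjusted p = 0.0104).

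*Hfe* measured 55.0, 52.2, 61.5, 60.6 and 56.5 CPM in Sham HFD and 39.9, 40.03, 42.5, 38.4 and 41.6 in RYGB HFD. The groups did not overlap, and *Hfe* fell by 0.50 on the log2 scale (SE 0.08, adjusted p = 0.000166), a call that held with each mouse left out. In sham mice HFD raised it by 0.22 (SE 0.08, adjusted p = 0.0443), from 49.03 ± 4.68 to 57.1 ± 3.89 CPM. This call was lost in 10 of 20 fits that each left out 1 mouse, with adjusted p-values up to 0.118 without Sham Chow replicate 3. It was also lost with no filter (0.149), with the replicate block (0.0611) and with the sham groups alone (0.0618). The interaction, -0.41 (SE 0.11, adjusted p = 0.0343), was lost in 11 of 20 such fits, with adjusted p-values up to 0.0682 without the same mouse, and also with no filter (0.0918) and with the replicate block (0.0557). On chow the surgery difference was -0.09 (SE 0.08, adjusted p = 0.72).

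*Tmprss6* (ENSMUSG00000016942, chromosome 15, 78439667 to 78468634, minus strand), the protease that damps the pathway, was not called in any contrast. Sham mice averaged 584 ± 33.1 CPM on chow and 545 ± 17.9 on HFD, and RYGB mice 583 ± 23.2 and 535 ± 18.9 (SD, n = 5). The log2 fold changes after RYGB were 0.00 (SE 0.06) on chow and -0.03 (SE 0.06) on HFD. Those of HFD were -0.10 (SE 0.06, adjusted p = 0.224) in sham and -0.12 (SE 0.06, adjusted p = 0.253) in RYGB mice. The small SE puts *Tmprss6* among the members measured most precisely, with coefficients of variation of 3.27% to 5.66% within groups.

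**Figure D3:**
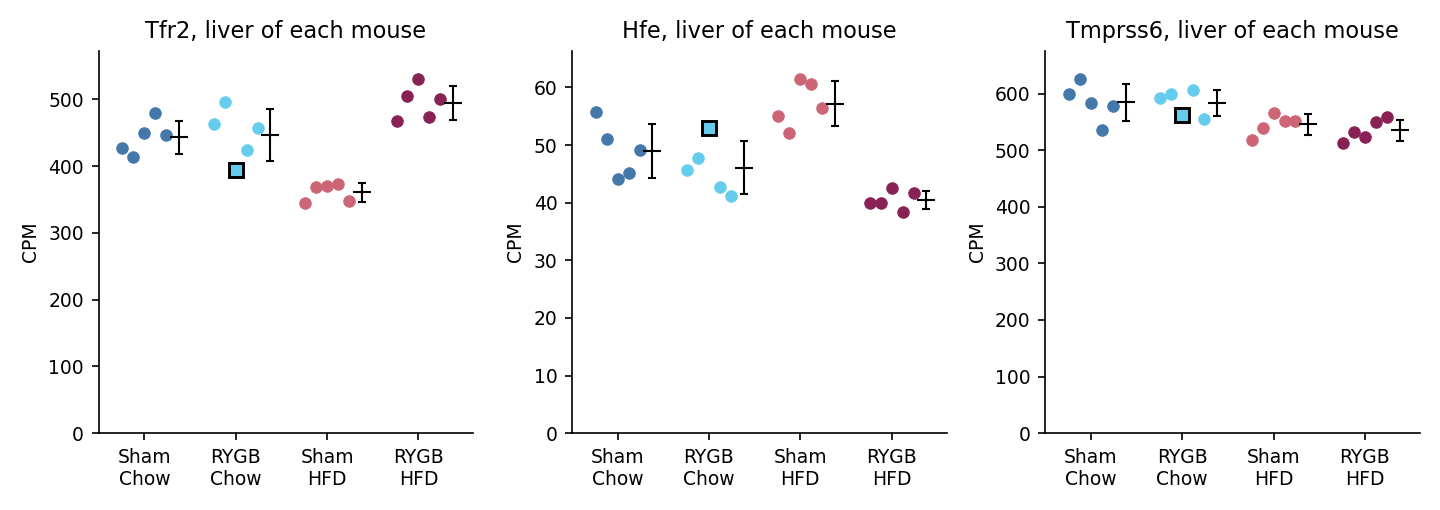
CPM of *Tfr2*, *Hfe* and *Tmprss6* in each mouse, 1 point per mouse with the mean and SD of 5 mice beside it and RYGB Chow replicate 3 as a square, on axes that start at 0. RYGB HFD lies above Sham HFD for *Tfr2* and below it for *Hfe*, with no overlap in either, and the 4 groups overlap for *Tmprss6*.

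The inhibitory SMADs feed back on the receptors. Their interaction was not called (*Smad6* -0.44, adjusted p = 0.402, and *Smad7* 0.27, adjusted p = 0.673). *Smad6* (ENSMUSG00000036867, chromosome 9, 63953076 to 64022059, minus strand) measured 12.5, 12.8, 9.97, 15.8 and 13.2 CPM in Sham HFD and 10.1, 5.78, 6.34, 10.3 and 7.91 in RYGB HFD. These overlapped through Sham HFD replicate 3, and the fall was -0.67 (SE 0.20, adjusted p = 0.028). Without Sham HFD replicate 4 or 5 or RYGB HFD replicate 2, 3 or 5 its adjusted p was 0.0536 to 0.0761. On chow the group means were 10.3 ± 2.07 in Sham Chow and 8.80 ± 2.30 in RYGB Chow (-0.22, SE 0.20, adjusted p = 0.747).

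*Smad7* (ENSMUSG00000025880, chromosome 18, 75367529 to 75395935, plus strand) measured 11.7, 18.1, 16.05, 16.3 and 12.6 CPM in Sham Chow and 8.71, 6.84, 17.4, 7.28 and 5.55 in RYGB Chow. Replicate 3 was inside the Sham Chow range and the other 4 RYGB Chow mice lay below it. The log2 fold change was -0.71 (SE 0.22, adjusted p = 0.257), and -1.07 (SE 0.16, adjusted p = 0.00294) without replicate 3. On HFD the values were 8.87 to 11.3 CPM in sham and 5.94 to 8.65 in RYGB mice, without overlap (exact permutation test, two-sided p = 0.00794). edgeR gave -0.44 (SE 0.23, adjusted p = 0.201), 0.0408 without RYGB Chow replicate 3 and 0.0303 with the HFD groups fitted alone. Sham HFD was below Sham Chow without overlap, at -0.58 (SE 0.22, adjusted p = 0.0664, and 0.00697 without that mouse). DESeq2 (adjusted p = 0.0431), limma-voom (0.0368) and edgeR with the sham groups fitted alone (0.00732) also called this diet difference.

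*Id1* (ENSMUSG00000042745, chromosome 2, 152736251 to 152737410, plus strand), which encodes an inhibitor of DNA binding and is a standard readout of BMP signalling, was lower after RYGB. Sham Chow mice measured 7.58, 13.0, 10.3, 7.21 and 11.0 CPM and RYGB Chow mice 2.94, 2.64, 8.19, 1.91 and 2.60. Again replicate 3 alone entered the Sham Chow range, and the log2 fold change was -1.43 (SE 0.34, adjusted p = 0.148), or -1.96 (SE 0.28, adjusted p = 0.00294) without it. On HFD, Sham mice measured 4.41, 7.86, 7.05, 4.37 and 4.95 CPM and RYGB mice 2.99, 2.03, 0.807, 2.54 and 1.79. These groups did not overlap, and *Id1* fell by 1.49 on the log2 scale (SE 0.36, adjusted p = 0.00625), with an adjusted p of at most 0.0193 when 1 mouse was left out. The interaction was -0.06 (SE 0.48, adjusted p = 0.958), and its sign changed in 6 of 20 fits without 1 mouse.

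*Atoh8* (ENSMUSG00000037621, chromosome 6, 72206177 to 72235577, minus strand), a transcription factor gene that BMP signalling and iron raise in liver, measured 16.3, 15.9, 16.8, 14.4 and 16.9 CPM in Sham HFD. RYGB HFD mice measured 5.00, 5.10, 4.96, 8.16 and 9.04. The groups did not overlap, and the fall was -1.32 (SE 0.33, adjusted p = 0.00923), called with each mouse left out. On chow, Sham mice measured 14.1 to 27.3 CPM and RYGB mice 8.22, 8.94, 35.3, 8.21 and 11.4. Replicate 3 lay above every Sham Chow mouse and the other 4 below, so that the log2 fold change was -0.46 (SE 0.32, adjusted p = 0.643) with it and -1.11 (SE 0.19, adjusted p = 0.0191) without it. HFD in RYGB mice gave -1.16 (SE 0.34, adjusted p = 0.0562), -0.52 (adjusted p = 0.163) without replicate 3, and an adjusted p of 0.0391 to 0.0492 without RYGB Chow replicate 1, 2 or 4 or RYGB HFD replicate 5. DESeq2 (adjusted p = 0.00816) and edgeR with no filter (0.035) called this fall, and limma-voom did not (0.145).

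**Figure D4:**
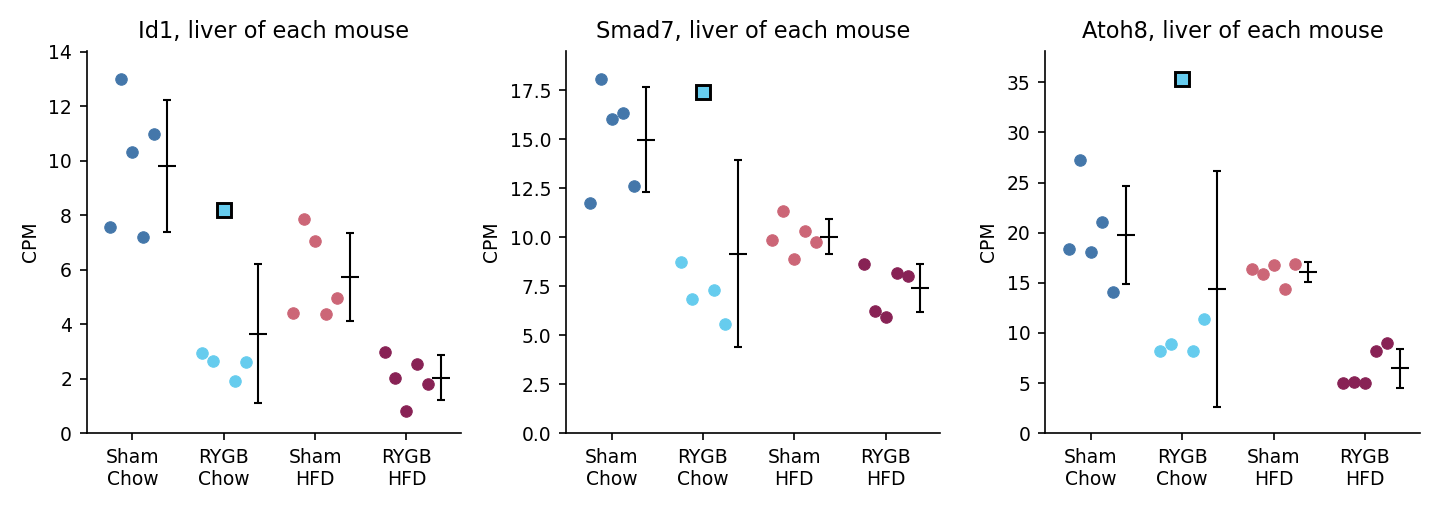
CPM of *Id1*, *Smad7* and *Atoh8* in each mouse, 1 point per mouse with the mean and SD of 5 mice beside it, on axes that start at 0. RYGB Chow replicate 3, the black-edged square, is at 8.19, 17.4 and 35.3 CPM, while the other 4 RYGB Chow mice lie below every Sham Chow mouse in all 3 genes.

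The third RYGB Chow mouse was inside the Sham Chow range for *Id1* and *Smad7*, below it for *Hamp* and above it for *Atoh8*. Its *Hamp* was 90.4 times the mean of the other 4 RYGB Chow mice, *Atoh8* 3.84 times, *Id1* 3.24 times and *Smad7* 2.45 times, with *Bmp6* at 1.46 times and *Smad6* at 1.15 times. Among the 71 tested genes of 8 lists of this pathway and its surroundings, only *Id3*, another inhibitor of DNA binding, put it apart from its group by the same rule, at 69.9 CPM against 18.4 to 21.3. Its *Hfe2*, the hemojuvelin gene, was the lowest of the group at 57.9 CPM, against 100.01 to 146 in the other 4 and 91.3 to 109 in Sham Chow. *Bmp2* (26.6 CPM), *Id2* (201) and *Socs3* (23.7) were the highest of the group and above all Sham Chow mice. The same held for many other genes of these lists, the inhibitor genes *Fgl1*, *Ski*, *Skil*, *Bambi* and *Smurf2* among them. It is therefore not particular to BMP ligands, BMP targets or the IL-6 arm. *Tfrc*, the transferrin receptor gene, was at 39.2 CPM, above every Sham Chow mouse (10.4 to 19.2) as in the other RYGB Chow mice (20.7 to 51.7). The 6 Kupffer cell markers summed to 464 CPM in this mouse, the highest of all 20, compared with 189 to 264 in the other RYGB Chow mice. Its hepatocyte markers summed to 70572 CPM compared with 82620.0 to 118498. That sum is mostly *Alb*, with a mean of 81470 CPM in RYGB Chow beside 100263 for the whole sum. The part of these cell markers in the result was not tested.

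**Figure D5:**
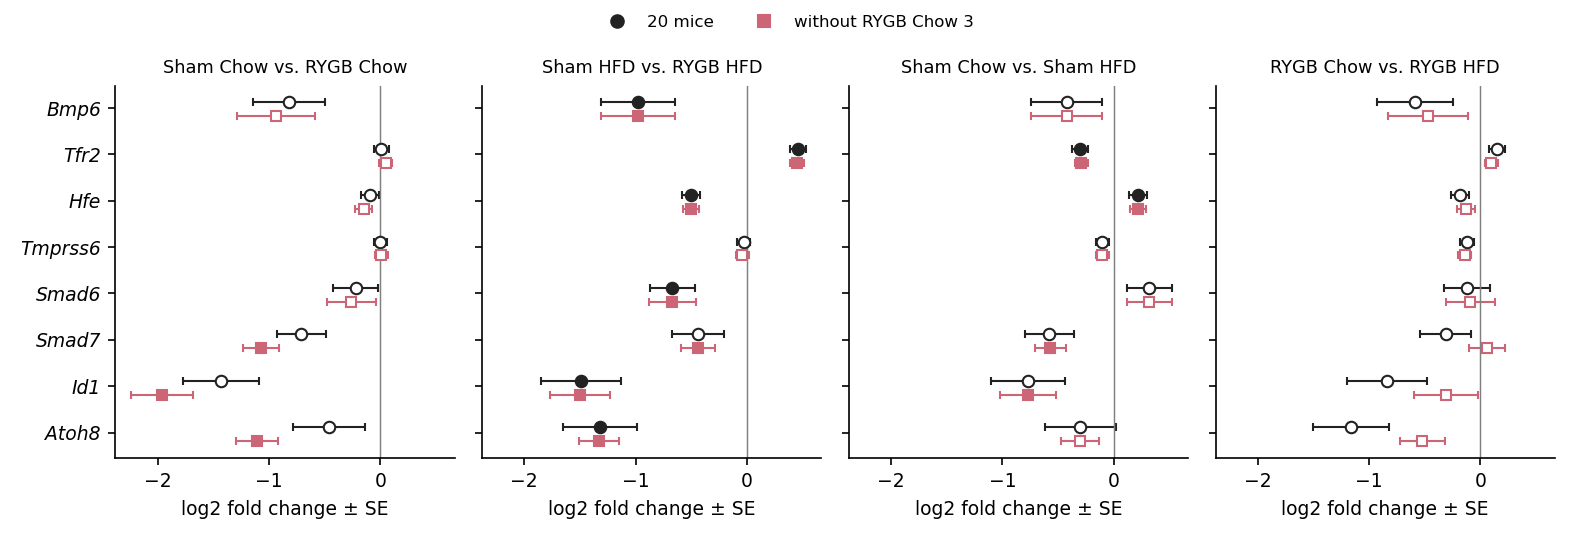
Log2 fold change (second group over first) with SE of 8 members in 4 contrasts, from edgeR with all 20 mice (black circles) and without RYGB Chow replicate 3 (red squares), filled where the adjusted p is under 0.05. Without that mouse *Id1*, *Smad7* and *Atoh8* become called in Sham Chow vs. RYGB Chow, at -1.96, -1.07 and -1.11. The mouse was singled out by its high values in these genes and *Hamp*.

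Per base of exon, the members spanned a wide range in Sham Chow. On the RPKM scale, CPM per kilobase of exon, *Hamp* was at 2023.5 ± 479.5 (SD, n = 5), *Tmprss6* at 174 ± 9.85, *Tfr2* at 102 ± 5.72 and *Hamp2* at 19.0 ± 9.82. *Hfe* followed at 13.7 ± 1.31, *Id1* at 8.46 ± 2.09 and *Atoh8* at 7.89 ± 1.94. *Smad7* (3.31 ± 0.592) and *Smad6* (3.22 ± 0.645) differed by less than their spread, and *Bmp6* was the lowest at 1.93 ± 0.446. In RYGB HFD, *Hamp* was at 0.451 ± 0.469 RPKM, under *Bmp6* at 0.730 ± 0.24, with overlapping spread.

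The remaining pathway was counted in lists that were fixed for all contrasts and hold no member. Of all tested genes, 0.057% were called after RYGB on chow and 16.4% after RYGB on HFD. For HFD the shares were 21.6% in sham and 3.65% in RYGB mice, and 5.06% for the interaction. At an unadjusted p under 0.05, 10.8% passed after RYGB on chow. In lists this short, 1 call after RYGB on HFD is near the share of all genes. The first list held 8 other ligand genes, of BMPs and of relatives in the wider TGF-beta family (*Gdf15* and *Inhbb*). After RYGB on chow 0 of the 8 were called. At an unadjusted p under 0.05 there were 3, all higher, and *Gdf2* had the smallest p (0.56 on the log2 scale, adjusted p = 0.193). On HFD, *Bmp2*, the other endothelial ligand that drives hepcidin, was the 1 called, from 23.03 ± 6.87 CPM in Sham HFD to 11.5 ± 4.30 in RYGB HFD (SE of the log2 fold change 0.31, adjusted p = 0.028). In sham mice, HFD raised 5 of 8, led by *Gdf15* (1.61, adjusted p = 0.00706), *Bmp10* (0.81, adjusted p = 0.01) and *Inhbb* (1.33, adjusted p = 0.029), and 0 were lower. None of the 8 was called for HFD in RYGB mice or in the interaction, where *Inhbb* (0.94, adjusted p = 0.206) and *Gdf15* (-1.80, adjusted p = 0.0659) had the smallest p-values.

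Of 9 tested receptor and co-receptor genes, 0 were called after RYGB on chow (*Acvrl1* 0.56, adjusted p = 0.347). *Acvr2b*, a type II receptor gene, was the 1 called on HFD, at 0.86 (SE 0.26, adjusted p = 0.0252). HFD in sham mice lowered *Acvr2b* (-0.94, adjusted p = 0.0132) and raised *Hfe2* (0.53, adjusted p = 0.0228) and *Acvrl1* (0.66, adjusted p = 0.0341). In RYGB mice and in the interaction 0 of 9 were called (*Hfe2* 0.32, adjusted p = 0.292, and *Acvr2b* 1.07, adjusted p = 0.0889). The median of these 9 genes was -0.08 on the log2 scale after RYGB on HFD and 0.08 on chow, near the 0.01 and 0.00 of all tested genes.

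Among 6 other SMAD genes *Smad9*, which encodes a receptor-activated SMAD of the BMP arm, was called in 3 tests. Its range was 15.8 to 41.3 CPM (Sham Chow), 10.8 to 43.1 (RYGB Chow), 1.498 to 7.21 (Sham HFD) and 7.26 to 36.8 (RYGB HFD). Sham HFD lay below every mouse of the other groups. The log2 fold changes were -2.84 (SE 0.47, adjusted p = 0.000283) for HFD in sham mice, 1.99 (SE 0.47, adjusted p = 0.0054) for RYGB on HFD and 2.37 (SE 0.63, adjusted p = 0.0327) for the interaction. No other SMAD gene of the list was called in any contrast. In the contrasts with no call, the gene with the smallest p was *Smad5* after RYGB on chow (0.13, adjusted p = 0.471) and *Smad2* for HFD in RYGB mice (0.23, adjusted p = 0.218).

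Of 12 tested genes of inhibitors, 3 were called after RYGB on HFD. The list also holds *Spint2*, whose product inhibits the protease of *Tmprss6* and so acts against a brake on the pathway. *Fgl1*, which encodes a secreted protein of hepatocytes that binds BMP6, rose by 1.41 (SE 0.20, adjusted p = 6.18e-05). *Smurf2*, a ubiquitin ligase gene, rose by 0.30 (adjusted p = 0.0173), and *Fkbp1a*, whose product holds type I receptors inactive, fell by 0.31 on the log2 scale (adjusted p = 0.0154). On chow 0 of 12 were called and *Fgl1* again had the smallest p (0.64, adjusted p = 0.245). HFD lowered *Spint2* in sham mice (-0.35, adjusted p = 0.0126) and raised *Fgl1* in RYGB mice (1.04, adjusted p = 0.00433), the 1 call in each, and the interaction called 0 (*Fkbp1a* -0.34, adjusted p = 0.104). *Nog*, *Grem1* and *Erfe*, the gene of the erythroid suppressor of hepcidin, did not reach the CPM limit.

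Among 5 further target genes of BMP and SMAD signalling, *Id3* was the 1 called after RYGB on HFD, at 16.1 ± 2.47 CPM in RYGB HFD and 34.9 ± 8.56 in Sham HFD (-1.12, SE 0.32, adjusted p = 0.0193). On chow it measured 28.6 to 71.1 CPM in Sham Chow. The log2 fold change there was -0.90 (SE 0.31, adjusted p = 0.285), and 1 of 5 targets was called without RYGB Chow replicate 3. HFD gave 0 calls among the 5 in sham (*Id3* -0.69, adjusted p = 0.114) and in RYGB mice (*Id3* -0.90, adjusted p = 0.121), as did the interaction (*Id4* -0.43, adjusted p = 0.647).

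Of 10 tested genes of the IL-6 arm, 3 were called after RYGB on HFD, where 16.4% of all genes were, and the median log2 fold change of the 10 was 0.00. They were *Lifr* (1.14, adjusted p = 0.000966), *Il6ra* (1.02, adjusted p = 0.00195) and *Socs3*, the gene of an inhibitor of this arm (0.74, adjusted p = 0.0422), all higher. On chow 0 were called (*Socs3* 0.68, adjusted p = 0.308). HFD in sham mice left 4 called, led by *Lifr* (-1.35, adjusted p = 0.000194), *Osmr* (1.00, adjusted p = 0.00847) and *Tyk2* (0.28, adjusted p = 0.0102), while in RYGB mice 0 were called (*Tyk2* 0.20, adjusted p = 0.133). The interaction called *Lifr* (1.42, adjusted p = 0.00879). *Il6* and *Osm* did not reach the CPM limit.

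Of 12 acute-phase genes that answer STAT3, 0 were called after RYGB on chow (*Lcn2* 1.48, adjusted p = 0.268). On HFD 6 were called, 5 higher and 1, *Saa2*, lower (-1.37, adjusted p = 0.0318), where 16.4% of all genes were called. The fibrinogen genes *Fgb* (0.84, adjusted p = 8.67e-06), *Fgg* (0.75, adjusted p = 4.08e-05) and *Fga* (0.68, adjusted p = 0.00014) led. HFD in sham mice raised 5, led by *Lcn2* (3.43, adjusted p = 4.86e-05), *Saa2* (2.64, adjusted p = 0.000438) and *Saa1* (2.06, adjusted p = 0.00162), and lowered 4. In RYGB mice it raised 4, among them *Fgb* (0.52, adjusted p = 0.00365), *Fgg* (0.49, adjusted p = 0.00862) and *Hp* (0.52, adjusted p = 0.025). The interaction called 4. It was positive for *Fgb* (0.86, adjusted p = 0.0012), *Fgg* (0.82, adjusted p = 0.00234) and *Fga* (0.72, adjusted p = 0.00704), and negative for *Saa2* (-2.64, adjusted p = 0.0185).

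Of 9 genes of iron export, uptake and storage, 0 were called after RYGB on chow (*Tfrc* 1.44, adjusted p = 0.097) and 6 on HFD. *Tfrc* rose by 2.30 (adjusted p = 6.29e-05), while the ferritin gene *Fth1* fell by 0.53 on the log2 scale (adjusted p = 8.6e-05) and *Trf*, transferrin, rose by 0.59 (adjusted p = 0.000146). HFD left 1 called in sham mice (*Trf* -0.35, adjusted p = 0.00909) and 4 in RYGB mice, led by *Ftl1* (-0.51, adjusted p = 0.00433), *Trf* (0.41, adjusted p = 0.0143) and *Steap3* (0.59, adjusted p = 0.0151). The interaction called *Trf* (0.75, adjusted p = 0.00201), *Fth1* (-0.46, adjusted p = 0.0185) and *Ftl1* (-0.47, adjusted p = 0.0485).

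Cell markers moved with some of these contrasts. Of 6 Kupffer cell markers, 6 were higher in RYGB Chow than in Sham Chow at an unadjusted p under 0.05 (10.8% of all genes in either direction). After adjustment, edgeR called 0 of these markers. Their summed level ranged from 91.7 to 246 CPM in Sham Chow and 189 to 464 in RYGB Chow. All 6 stellate cell markers were called higher by HFD in sham mice, where 21.6% of all genes were called. They summed to 144 to 236 CPM in Sham Chow and 280 to 346 in Sham HFD. Of 6 hepatocyte markers, 4 were called higher and 1, *Ttr*, lower after RYGB on HFD (16.4% of all genes were called). Of the called members, *Tfr2* was also higher, and *Hamp*, *Hamp2*, *Bmp6*, *Id1*, *Smad6*, *Hfe* and *Atoh8* were lower, as *Ttr* was. The markers summed to 66868 to 79572 CPM in Sham HFD and 94362 to 113344 in RYGB HFD. Most of these sums was *Alb*, with means of 59965 and 83392 CPM. The summed erythroid markers ranged from 99.3 to 461 CPM over all mice, with 0 of 5 tested called in any contrast by edgeR. At an unadjusted p under 0.05, 1 passed after RYGB on each diet (10.8% of all genes on chow and 30.7% on HFD). The 4 pancreatic acinar markers summed to 2.03 CPM in RYGB Chow replicate 3, at most 0.24 in other mice and 0 in all Sham Chow mice. Neutrophil and lymphocyte markers stayed at or under 8.26 CPM in all mice. The part of these markers in the members' values was not tested.

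The genes whose level over the 20 mice was most like that of *Hamp* are given by Pearson's r on log2 of CPM + 0.5, as a description, since all 20 points share the 4 groups and their libraries. *Id1* (r = 0.91) and *Atoh8* (0.89) were the closest of 12288 other genes. *Id3* (0.88), *Apoa5* (0.87), *Rida* (0.85), *Cryl1* (0.84) and *Me1* (0.83) were the closest that are no members. *Apoa5*, which encodes an apolipoprotein that lowers plasma triglycerides, also had RYGB Chow replicate 3 above the rest of its group, at 1332 CPM against 569.8 to 765. *Hamp2* (0.81), *Smad7* (0.78), *Hfe* (0.75) and *Bmp6* (0.66) came next among the members, then *Smad6* (0.48) and *Tmprss6* (0.23), and *Tfr2* was negative (-0.65). Without RYGB Chow replicate 3, r was 0.90 for *Id1*, 0.92 for *Atoh8* and 0.89 for *Hamp2*.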

How the data were processed

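Liver RNA of 20 mice was poly-A selected, made into strand-marked (dUTP) libraries and sequenced. Per the labels, the authors trimmed reads with Trimmomatic 0.36, aligned them to mm10 with HISAT2 2.1.0 and counted them per gene with featureCounts 1.5.0-p3. They deposited raw counts, and every column was matched to a mouse by its label (0 pairs of columns were identical). Symbols of 54495 genes came from GENCODE M21.

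Genes that reached 2 CPM in 3 or more mice were scaled by TMM and fitted over all 4 groups with edgeR 4.0.16 (R 4.3.3), using quasi-likelihood tests and Benjamini-Hochberg adjustment over 12289 genes. The biological coefficient of variation was 0.181. The steps were tested on simulated data. limma 3.58.1 and DESeq2 1.42.0 were alternatives, and exact permutation tests used scipy 1.17.1. The p-values set group differences against the spread between mice and take the mice as independent. Whether the 5 mice of a group shared cages or litters is not given, and if they did, the p-values could be too small. Intervals and floors cover counting error only. Members and lists were chosen with earlier results of these data known. Named are all members, up to 3 called genes of each list and contrast with the smallest p (otherwise the gene with the smallest p), the 5 genes most like *Hamp*, and mice set apart by the gap rule. The text names a few more genes and mice beside them (*Id2* and *Bmp2* in RYGB Chow replicate 3, for example), chosen after their values were seen.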

Additional observations from a re-analysis of the deposited data

Results flagged for a closer look

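A mouse was singled out when its gap to the nearest mouse of its group of 5 was a large part of the group's range (Dixon's ratio). Of 40 groups of 5 examined, 5 held such a mouse, where the rule flags about 1 in 20 by chance if values are normally distributed. *Hamp2* in RYGB HFD, at 0 in every mouse, could not be flagged. RYGB Chow replicate 3 was the one in 4 of them, with *Hamp* at 447 CPM (next highest 10.8), *Id1* at 8.19 (next 2.94), *Smad7* at 17.4 (next 8.71) and *Atoh8* at 35.3 (next 11.4). These 4 flags come from the same mouse and are not independent draws to set against that rate. In RYGB HFD, replicate 2 stood apart for *Hamp*, at 0.521 CPM with the next at 0.163, which are 10 and 3 reads.

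The surgery by diet interaction was called in edgeR's quasi-likelihood test for 4 members. *Hamp* (-7.51 on the log2 scale, SE 1.93, adjusted p = 0.0283), *Hamp2* (-9.93, SE 1.64, adjusted p = 0.00295) and *Hfe* (-0.41, SE 0.11, adjusted p = 0.0343) had the more negative surgery difference on HFD, and *Tfr2* (0.45, SE 0.10, adjusted p = 0.0104) the more positive one. The *Hamp* call was lost by limma-voom (adjusted p = 0.5), with the replicate block (0.075) and without RYGB HFD replicate 4 (0.0549). The *Hfe* call was lost with no filter (0.0918), with the block (0.0557) and in 11 of 20 fits that each left out 1 mouse.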

How the results depend on the processing

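Of 394 fold changes of members under alternatives other than leaving out a mouse, 362 kept their direction and their side of the threshold, 15 became called, 12 lost the call and 5 changed sign. Of 1000 with 1 mouse left out, the counts were 919, 14, 50 and 17. After RYGB on chow, the count of called members was 0 by edgeR with all mice, 2 by DESeq2 (*Hamp2* and *Id1*), 1 by limma-voom (*Hamp*), 1 with no filter (*Hamp2*) and 0 to 4 with 1 mouse left out. Of all 12289 genes, edgeR called 7, DESeq2 92 and limma-voom 3 there. With no filter 13 of 28411 genes were called, and 0 to 15 with 1 mouse left out. After RYGB on HFD the count of members was 8, 7 by limma-voom, 9 with those groups alone and 6 to 9 with 1 mouse left out. Over all genes these counts were, in the same order, 2021, 2049, 2376 and 1534 to 2197. For HFD in sham mice the count of members was 3, 5 by limma-voom, 5 with those groups alone and 1 to 6 with 1 mouse left out. The counts of all genes were 2656, 2736, 2836 and 2009 to 2880. DESeq2 also called 3 members there, with *Smad7* and without *Hamp2* (2969 of all genes). For HFD in RYGB mice the count of members was 2, 0 by limma-voom and 1 with those groups alone (448, 421 and 184 of all genes). It was 3 by DESeq2 (751 of all genes) and with no filter (314), both adding *Atoh8*. With 1 mouse left out it was 2 to 3 (244 to 488 of all genes). For the interaction the count of members was 4 (622 of all genes), and as few as 2 with 1 mouse left out (377 to 805 of all genes). Members whose groups did not overlap numbered 2 to 5 on chow and 2 to 4 for HFD in RYGB mice with 1 mouse left out. Fewer mice separate more easily in any gene. On chow the share of all genes went from 1.33% to 1.86% without RYGB Chow replicate 3. For the other fits that share is not given, so their counts have no baseline. Apart from the alternatives that drop mice, the cause was not tested.

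The sign changed for the *Bmp6* interaction (0.02 by limma-voom), the *Id1* interaction (0.04 by limma-voom, 0.08 with the replicate block), and *Tmprss6* by library size alone (0.04 after RYGB on chow, 0.03 for HFD in sham mice). Scaling by library size alone put the median of all genes at 0.122 for HFD in sham mice (-0.005 with TMM) and -0.125 for the interaction (0.016 with TMM). Of all genes it then called 2279 higher and 554 lower for HFD in sham mice (1337 and 1319 with TMM), 542 and 1497 after RYGB on HFD (1050 and 971), and 151 and 597 in the interaction (305 and 317). With 1 mouse left out, signs changed for *Id1* (interaction, -0.25 to 0.46), *Bmp6* (interaction, -0.42 to 0.0001), *Smad7* (HFD in RYGB mice, -0.45 to 0.06), *Tfr2* (RYGB on chow, -0.03 to 0.05) and *Tmprss6* (RYGB on chow, -0.04 to 0.02, and interaction, -0.05 to 0.0029).

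Replicate numbers did not pair the mice: of 30 pairs that share a number, 5 had a correlation of deviations over 0.1 (range -0.257 to 0.16). With the replicate block, 2 members were called in the interaction, without *Hamp* (-6.05, adjusted p = 0.075) and *Hfe* (-0.40, adjusted p = 0.0557). *Bmp6* per endothelial marker sum, added after seeing the data, differed by -1.08 after RYGB on chow, by -0.63 on HFD, by -0.76 for HFD in sham and by -0.30 in RYGB mice (log2). At 1 to 3 reads, *Hamp* levels of the RYGB HFD mice other than replicate 2 cannot be ordered, and replicate 2 itself rests on 10 reads.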
